A study of Mus musculus with 9 samples.

Results

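The lipoxygenase genes of the mouse labial mucosa (inner lip) were described in 9 libraries of bulk polyadenylated RNA from 3 strains. They are the 7 enzyme genes Alox15, Alox12e, Alox12, Alox12b, Aloxe3, Alox8 and Alox5, with Alox5ap, the gene of the membrane protein that presents arachidonic acid to the Alox5 enzyme. They were picked by symbol, 8 of the 55342 gene names in the files. Alox15 was singled out because earlier results of these data showed it low in Tac111, so its level and fold changes are a description and carry no test. The other 7 were taken as family members by name, and their tests were run across all genes. The strains were labelled Tac111, Tac146 and B6, with 3 libraries each. The labels give neither genotype, age nor sex. All mice were infected before the biopsy was taken, and the agent is not stated in the sources used here. By label, the cells are T cells for Tac111 and Tac146, and ILC1 (type 1 innate lymphoid cells) for B6, so strain and labelled cell type cannot be told apart in the comparisons with B6.

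Lipoxygenases insert molecular oxygen into polyunsaturated fatty acids such as arachidonic and linoleic acid and yield lipid hydroperoxides. In squamous epithelium, the products of Alox12b and Aloxe3 act in sequence on linoleate-containing ceramides of the water barrier. In leukocytes, Alox5 with Alox5ap opens leukotriene synthesis. Alox15, the leukocyte-type enzyme, can also oxygenate fatty acids that are still part of membrane phospholipids, and its human counterpart is induced by interleukins 4 and 13 in monocytes and airway epithelium.

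Of the 8 genes, 6 lie on chromosome 11. Gene coordinates are of GRCm38 with the GENCODE M21 annotation. Alox15 lies at chromosome 11, 70344152 to 70352031, on the minus strand. Alox12e, at 70315610 to 70322628 on the same strand, is 21.5 kb away, and Alox12, at 70241457 to 70255353, is another 60.3 kb beyond. A second cluster holds the barrier genes Aloxe3, at 69125896 to 69149115, and Alox12b, at 69156989 to 69169792, with Alox8 at 69183932 to 69197843. The gap between Alox8 and Alox12 is 1.04 Mb. Alox5 (chromosome 6, 116410077 to 116461178) and Alox5ap (chromosome 5, 149264767 to 149288153) are elsewhere.

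Because Alox15 and Alox12e are neighbouring relatives that could share reads, their coding sequences were compared. No stretch of 50 bases of the annotated Alox15 or Alox12e transcripts occurred in transcripts of another gene. The longest run of identical bases between them was 16 bases. The 48 coding bases around that run are shown here, bases 667 to 714 of the Alox15 coding sequence and 664 to 711 of Alox12e, from GENCODE M21 transcripts, with the 6 bases that differ in capitals.
Alox15: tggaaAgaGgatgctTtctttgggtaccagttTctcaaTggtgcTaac
Alox12e: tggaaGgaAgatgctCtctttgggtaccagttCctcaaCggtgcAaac
Of the other genes, Alox5ap shared 6.8% of its 50-base words with the overlapping antisense gene Gm19719, and Alox8 shared 1.79% with other genes. The strand setting of the counting is not stated, so the Alox5ap counts may include reads of Gm19719.

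RefSeq promoter windows (GRCm38.p6, 250 bases before to 50 after the RefSeq start, which can differ from the GENCODE start) were found for 5 of the 8 genes. Alox15, Aloxe3 and Alox5ap had no window, so their promoters were not searched. Those of Alox12e and Alox12 are shown because they are the nearest family neighbours of Alox15, and Alox12e fell in Tac111 where Alox12 was not called. Capitals mark GGGCGG, the GC box.
Alox12e (chr11:70322481-70322780, minus strand): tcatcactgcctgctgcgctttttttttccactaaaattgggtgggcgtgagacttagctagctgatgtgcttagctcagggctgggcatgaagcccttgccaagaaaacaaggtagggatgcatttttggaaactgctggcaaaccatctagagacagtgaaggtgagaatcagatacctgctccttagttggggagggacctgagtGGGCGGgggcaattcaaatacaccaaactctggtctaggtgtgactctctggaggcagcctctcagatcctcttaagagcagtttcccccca
Alox12 (chr11:70255321-70255620, minus strand): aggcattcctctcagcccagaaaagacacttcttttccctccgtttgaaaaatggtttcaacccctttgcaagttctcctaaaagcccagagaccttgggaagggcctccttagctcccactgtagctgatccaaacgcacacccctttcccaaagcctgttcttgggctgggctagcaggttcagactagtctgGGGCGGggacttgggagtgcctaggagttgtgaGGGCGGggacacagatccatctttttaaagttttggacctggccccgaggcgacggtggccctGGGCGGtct
The Alox12e window held 1 GC box and the Alox12 window 3, on either strand, and 35.7% of the 32851 promoter windows held at least 1. The STAT-type motif TTCNNNGAA, searched on both strands, occurred in 8.3% of all windows and in none of the 5 lipoxygenase windows. A missing match says only that these letters are not in these windows.

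Alox15 was near the bottom of the family in Tac111 and near its top in the other strains. Its level in CPM (counts relative to library size, with TMM factors) was 3.17, 4.48 and 4.42 in the Tac111 libraries. In the Tac146 libraries it was 335, 358 and 534 CPM, and in the B6 libraries 121, 191 and 311 CPM. The values rested on 99, 124 and 152 expected counts in Tac111, and on 5075 or more in each Tac146 and B6 library. The 3 strains did not overlap, with Tac111 lowest and Tac146 highest. The log2 fold change of Tac111 over B6 was -5.69 (SE 0.37), or 51.6-fold lower. It was -6.67 (SE 0.39) for Tac111 over Tac146 and 0.98 (SE 0.30) for Tac146 over B6. Each pair of these comparisons shares a strain, so they are not independent. In bulk tissue, fewer cells of a type and less RNA per cell cannot be told apart.

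**Figure D1:**
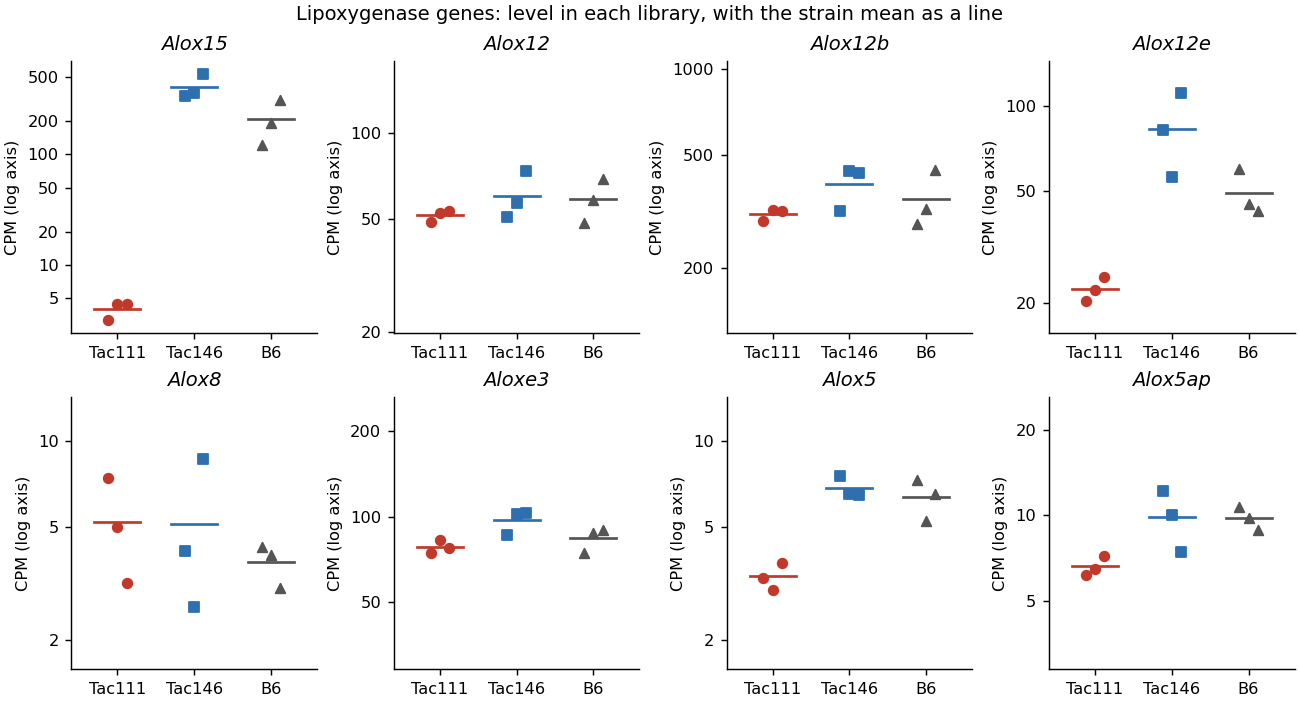
Level of each lipoxygenase gene in CPM on a log axis in the 9 libraries, by strain, with points for libraries and a line for the strain mean; every panel spans its own range. Alox15 sits at 3.17 to 4.48 CPM in Tac111 and at 121 CPM or more in every other library.

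Alox12e, an epidermal-type arachidonate lipoxygenase of mouse skin, fell in Tac111. It had 20.3, 22.1 and 24.6 CPM in Tac111, 81.8, 56.0 and 111.2 CPM in Tac146, and 59.5, 44.8 and 42.3 CPM in B6. All Tac111 libraries lay below all others, and Tac146 and B6 overlapped. Its log2 fold change over B6 was -1.13 (SE 0.22), a fall with an edgeR adjusted p of 0.0187. Over Tac146 it was -1.89 (SE 0.22), with an edgeR adjusted p of 0.000994. Against B6 the call was lost without any 1 of the 3 Tac111 libraries or B6 replicate 1, with edgeR adjusted p between 0.0576 and 0.0818. In Tac146 against B6 its log2 fold change was 0.76 (SE 0.22, edgeR adjusted p = 0.39, 95% interval 0.28 to 1.24), which missed the threshold.

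Alox12, the platelet-type enzyme that is also made in epidermis, overlapped in all 3 strains. It had 48.8, 52.6 and 53.4 CPM in Tac111, 50.6, 56.8 and 73.8 in Tac146 and 48.3, 58.2 and 69.3 in B6. Its log2 fold change was -0.18 in Tac111 over B6 (95% interval -0.53 to 0.16, edgeR adjusted p = 0.498), -0.23 in Tac111 over Tac146 (edgeR adjusted p = 0.331) and 0.04 in Tac146 over B6 (95% interval -0.30 to 0.39), so none was called. Platelet markers, summed over 10 genes, were at 36.7 to 43.1 CPM in Tac111, 35.1 to 38.1 in Tac146 and 32.4 to 37.8 in B6.

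Neither enzyme of the barrier pair was called by edgeR in any comparison. Alox12b, which oxygenates linoleate bound in ceramides, had 293, 321 and 316 CPM in Tac111, 316, 437 and 431 in Tac146 and 285, 322 and 443 in B6. Its log2 fold change of Tac111 over B6 was -0.18 (95% interval -0.55 to 0.20, edgeR adjusted p = 0.555), that of Tac111 over Tac146 was -0.35 (edgeR adjusted p = 0.186), and that of Tac146 over B6 was 0.17 (95% interval -0.20 to 0.55). Aloxe3, which converts the Alox12b product, had 74.9, 83.2 and 77.5 CPM in Tac111, 86.1, 102 and 103 in Tac146 and 74.6, 87.9 and 89.7 in B6. Its Tac111 libraries lay below all Tac146 libraries (log2 fold change -0.31, SE 0.10, edgeR adjusted p = 0.0773), which missed the threshold in edgeR and passed it in DESeq2 (adjusted p = 0.0427). Its log2 fold change was -0.10 in Tac111 over B6 (95% interval -0.32 to 0.13) and 0.21 in Tac146 over B6 (95% interval -0.02 to 0.44). The CPM ratio of Alox12b to Aloxe3 was 3.86 to 4.07 in Tac111, 3.67 to 4.28 in Tac146 and 3.67 to 4.94 in B6, and these ranges overlapped. Within B6, Alox15, Alox12, Alox12b and Aloxe3 were all highest in replicate 3, where the summed level of 12 oral squamous epithelium markers was also highest (110807 CPM, against 66299.7 in replicate 1 and 81682 in replicate 2). Alox12e, Alox8 and Alox5ap were lowest in that library. The other strains differed. The epithelium sum was highest in Tac111 replicate 3 (81434 CPM) and Tac146 replicate 4 (103193 CPM). Alox12e and Alox12 were highest of their strain in both, Alox15 and Aloxe3 only in Tac146 replicate 4, and Alox12b in neither. Alox8 was highest in Tac146 replicate 4 and lowest in Tac111 replicate 3, and Alox5ap the reverse. The part of epithelial content in these values was not tested.

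Alox8, which in mouse skin is induced by phorbol ester, was low and scattered. It had 7.44, 4.98 and 3.17 CPM in Tac111, 4.11, 2.61 and 8.64 in Tac146 and 4.23, 3.97 and 3.05 in B6. The strains overlapped, and the 95% interval of Tac111 over B6 ran from -0.45 to 1.38 on the log2 scale, so neither a rise nor a fall can be read from these libraries. Its SD was 2.14 CPM on a mean of 5.2 in Tac111, 3.14 on 5.12 in Tac146 and 0.618 on 3.75 in B6 (n = 3 each). The edgeR adjusted p was 0.521, against 0.82 for Tac146 over B6 and 0.992 for Tac111 over Tac146.

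Of the leukocyte pair, Alox5 fell in Tac111 and Alox5ap was lower without passing the threshold. Alox5 had 3.3, 3.0 and 3.72 CPM in Tac111, 7.5, 6.48 and 6.44 in Tac146 and 7.3, 5.22 and 6.53 in B6. The log2 fold change of Tac111 over B6 was -0.93 (SE 0.16), with an edgeR adjusted p of 0.00993, and that of Tac111 over Tac146 was -1.02 (SE 0.16), with an edgeR adjusted p of 0.00445. Without Tac111 replicate 2 the edgeR adjusted p against B6 was 0.0529. In Tac146 over B6 its log2 fold change was 0.10 (95% interval -0.24 to 0.43, edgeR adjusted p = 0.898). Alox5ap had 6.15, 6.47 and 7.21 CPM in Tac111, 12.2, 10.04 and 7.41 in Tac146 and 10.7, 9.78 and 8.91 in B6. Its Tac111 libraries lay below all others, and its log2 fold changes of -0.57 over B6 (edgeR adjusted p = 0.103) and -0.58 over Tac146 (edgeR adjusted p = 0.0596) missed the threshold. DESeq2 gave an adjusted p of 0.0461 against B6 and 0.0235 against Tac146. In Tac146 over B6 the value was 0.01 (95% interval -0.37 to 0.38).

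Summed markers differed between strains for some cell types and overlapped for others. Beside the calls below, 2.8% of all genes were called lower in Tac111 against B6 and 6.27% in Tac111 against Tac146. In Tac146 against B6 it was 0.109%. In Tac111 against B6, edgeR called none of the tested macrophage, mast cell, neutrophil or oral squamous epithelium markers. DESeq2 called 2 of 12 macrophage and 1 of 5 neutrophil markers there (6.48% of all genes), and no mast cell or epithelium marker. The macrophage median log2 fold change was -0.40 (0.02 over all genes). In Tac111 against Tac146, 2 of 12 macrophage, 2 of 5 neutrophil and 2 of 12 epithelium markers tested fell. No mast cell marker was called there. Macrophage markers (12 genes, none at 0) summed to 268 to 318 CPM in Tac111, 259 to 446 in Tac146 and 354 to 421 in B6. Mast cell markers (10 genes, none at 0) summed to 169 to 202 CPM in Tac111, 69.3 to 189 in Tac146 and 155 to 201 in B6. Neutrophil markers (10 genes, Ly6g at 0 in every library) summed to 16.5 to 23.5 CPM in Tac111, 35.8 to 119.8 in Tac146 and 12.7 to 21.0 in B6. Eosinophil markers summed to 1.1 to 1.59 CPM in Tac111, 3.62 to 6.11 in Tac146 and 3.15 to 3.2 in B6, with the granule genes Prg3 and Epx at 0 in every library. Oral squamous epithelium markers were far above these, at 67807 to 81434 CPM in Tac111, 73290.3 to 103193 in Tac146 and 66299.7 to 110807 in B6. Endothelium markers summed to 164 to 179.6 CPM in Tac111, 243 to 267 in Tac146 and 249.8 to 312 in B6, with 6 of 10 genes called lower in Tac111 against B6 and 5 against Tac146. ILC2 (type 2 innate lymphoid cell) markers summed to 160.3 to 179 CPM in Tac111, 231 to 234 in Tac146 and 219 to 235 in B6. Of the 8 tested genes, 3 were called lower in Tac111 in each comparison. Gata3 and Il5 were not called, with log2 fold changes of 0.33 and 0.69 in Tac111 over B6 and 0.05 and 0.70 over Tac146. Klrg1, Il13 and Il9r were at 0 in Tac111, but Il13 had only 1 to 3 expected counts in each B6 library. The T cell markers go against the labelled cell type. Cd3d, Cd3e, Cd3g, Cd8a, Cd8b1 and Cd6 were at 0 in the Tac111 libraries labelled T cells, and Cd8b1 was at 0 in Tac146. The T cell list summed to 16.3 to 18.8 CPM in Tac111 and 17.7 to 19.7 in Tac146, against 24.4 to 30.3 in the B6 libraries labelled ILC1, and 8 of 13 tested genes fell in Tac111 against B6 and 5 in Tac146 against B6. Of the 16 ILC1 and natural killer cell markers, 9 were at 0 in Tac111, where the list summed to 7.12 to 9.1 CPM, against 29.3 to 37.5 in Tac146 and 28.5 to 35.5 in B6. The part of these markers in the lipoxygenase results was not tested. Total expected counts ran from 27192359 to 46456500 per library. Nothing in the labels ties each library to its own animal, so the p-values cover the spread among these libraries, whose source may be technical. The first principal component (45.1% of the variance) separated Tac111 from the other strains, and Tac146 replicate 4 stood apart on the second.

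Of the 7 genes other than Alox15, 2 fell in Tac111 against B6 and none rose. Over the 16523 genes tested, 3.81% were called there (edgeR adjusted p under 0.05), 2.8% lower and 1.02% higher. Of the 7, 3 had an unadjusted p under 0.05 (21.8% of all genes), DESeq2 called 3 (6.48% of all genes), and 3 had Tac111 libraries that all lay below the B6 libraries (15.8% of all genes, 29.6% in either direction). Against Tac146, 2 of the 7 fell in Tac111 and none rose, where 8.89% of all genes were called, 6.27% lower and 2.62% higher. Of the 7, 4 had an unadjusted p under 0.05 (30.9% of all genes), DESeq2 called 4 (15.3%), and 4 had Tac111 libraries that all lay below the Tac146 libraries (18.4%, or 35.5% in either direction). In Tac146 against B6, edgeR called none of the 7, where 0.303% of all genes were called, 0.194% higher and 0.109% lower. There, 1 of the 7 had an unadjusted p under 0.05 (6.96% of all genes), DESeq2 called none (0.71%), and in none did the libraries of the strains stand apart (12.7%). The median log2 fold change of the 7 was -0.18 in Tac111 over B6 (0.02 over all genes tested), -0.35 in Tac111 over Tac146 (0.02 over all genes) and 0.17 in Tac146 over B6 (0.01 over all genes).

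**Figure D2:**
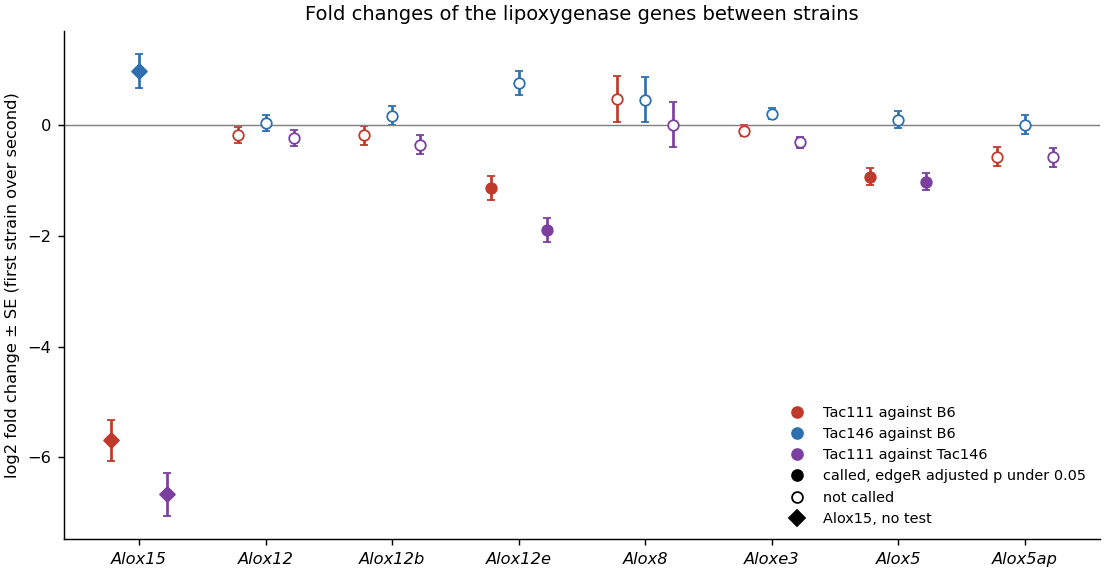
Log2 fold change of each lipoxygenase gene in the 3 comparisons, with SE; filled points passed the threshold (edgeR adjusted p under 0.05), open ones did not, and diamonds are Alox15, which has no test. Alox15 lies beyond -5 in both comparisons of Tac111, and the other genes lie between -1.89 and 0.76.

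Per length of the transcript, the order of the mean levels in Tac111 differed from that in the other strains. Tac146 and B6 differed only by swaps of neighbours that overlapped in both, Alox15 with Alox12b and Alox12 with Aloxe3. On CPM per kb of merged exons, the mean of Alox15 was 1.64 ± 0.3 in Tac111, 167 ± 44.3 in Tac146 and 84.6 ± 39.2 in B6 (SD, n = 3). Alox12b had 127 ± 6.22 in Tac111, 162 ± 28 in Tac146 and 144 ± 33.9 in B6 (SD, n = 3). In Tac146, Alox15 and Alox12b overlapped at the top, and in B6 they overlapped too. In Tac111, Alox15 stood between Alox5ap and Alox8 near the bottom, and overlapped Alox8. Of the summed CPM per kb of the 7 enzymes, Alox15 made up 0.833 to 1.08% in Tac111, 38.6 to 46% in Tac146 and 23.1 to 35.5% in B6, and Alox12b made up 77.5 to 77.8% in Tac111, 37.5 to 47.6% in Tac146 and 51.0 to 54.7% in B6. The sum itself was 155 to 169.7 in Tac111, 324 to 472 in Tac146 and 214 to 357 in B6. The order of the genes was the same on the length of the longest transcript.

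**Figure D3:**
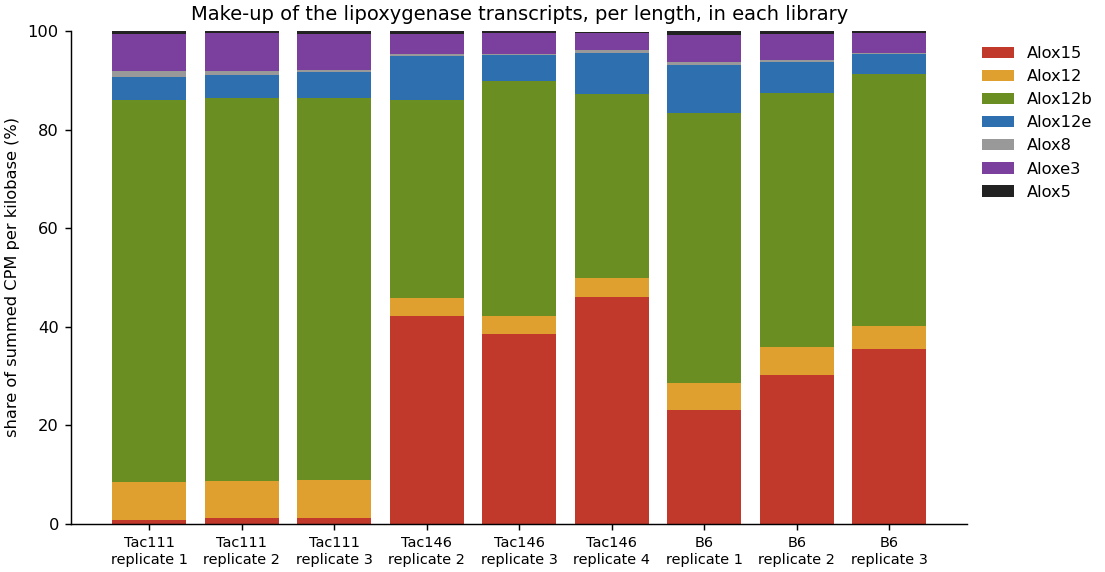
Share of each enzyme in the summed CPM per kb of the 7 lipoxygenase enzymes, 1 bar for each library. Alox15 takes 0.833 to 1.08% in Tac111 and 23.1% or more in the other libraries, and Alox12b is the largest share in every Tac111 and B6 library.

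Of the genes around Alox15, 18 within 250 kb were tested. Alox12e and Cxcl16, a chemokine gene, fell in Tac111 against B6 (Cxcl16 -0.50, edgeR adjusted p = 0.0173) and against Tac146 (-0.72, edgeR adjusted p = 0.00181), and none was called in Tac146 against B6. That is 2 of 18 in each comparison of Tac111, where 2.8% of all genes were called lower against B6 and 6.27% against Tac146. Without Alox12e, the neighbours' log2 fold changes of Tac111 over B6 ran from -0.72 to 0.37.

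The genes that feed, use or follow lipoxygenase products were counted list by list. Beside these counts, 3.81% of all genes were called in Tac111 against B6 (2.8% lower), 8.89% in Tac111 against Tac146 (6.27% lower) and 0.303% in Tac146 against B6. Of 14 tested leukotriene and lipoxin genes, Dpep2, a dipeptidase that converts leukotriene D4 to E4, fell in Tac111 against B6, with a log2 fold change of -1.02 (SE 0.21) and an edgeR adjusted p of 0.0231, and Mgst2, a glutathione transferase, rose (0.77, SE 0.15, edgeR adjusted p = 0.0199). Mgst2 also rose in Tac146 against B6 (0.90, edgeR adjusted p = 0.0411). Against Tac146, Dpep2 and the leukotriene B4 receptor gene Ltb4r2 fell in Tac111 (-1.48 and -0.89, edgeR adjusted p = 0.00251 and 0.019). Of 20 phospholipase and fatty acid genes, Elovl5, an elongase of polyunsaturated fatty acids, fell in Tac111 against B6 (-0.47, edgeR adjusted p = 0.03), and Elovl5, Pla2g4d and Pla2g4b fell against Tac146 (-0.67, -1.23 and -0.99). Of 21 cyclooxygenase pathway genes, Hpgds (prostaglandin D synthase) and Ptger3 (a prostaglandin E receptor) fell in Tac111 against B6 (-1.17 and -0.79, edgeR adjusted p = 0.0129 and 0.0247), and against Tac146 together with Ptges, while Akr1b3 rose. Of 19 hydroperoxide genes, the extracellular peroxidase Gpx3 rose in Tac111 against B6 (0.92, edgeR adjusted p = 0.025) and against Tac146 (0.85, edgeR adjusted p = 0.0279), where the cystine transporter gene Slc7a11 fell. In Tac146 against B6, none of the genes of these last 3 lists was called in edgeR, while 3 in each had an unadjusted p under 0.05 (6.96% of all genes) and DESeq2 called 1 phospholipase list gene (0.71% of all genes).

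None of 20 ceramide and barrier lipid genes was called in Tac111 against B6 (edgeR, 1 with an unadjusted p under 0.05, 1 in DESeq2), while 5 fell against Tac146, among them Nipal4, Sdr9c7, Abca12 and Tgm1, where 6.27% of all genes were lower. Of 25 tested genes of the interleukin 4 and 13 response list, 6 fell in Tac111 against B6 (2.8% of all genes) and 10 against Tac146 (6.27% of all genes). The list medians were -0.28 and -0.48, against 0.02 for all genes. The list also holds cytokine and cytokine receptor genes, so its counts and medians are not of response genes alone. The list was chosen with earlier results of these data known, so these counts describe it and are no independent support. The chitinase-like gene Chil4 had a log2 fold change of -11.41 in Tac111 over B6 (SE 0.61, edgeR adjusted p = 6.89e-06). Its near-identical copy Chil3, also among the called genes, may share its reads. Ccl22 and Ccl17, chemokines of the same response, fell too (-2.22 and -3.33, edgeR adjusted p = 0.00015 and 0.00261). Most of the list was not called in Tac111 against B6, among them Arg1 (0.12), Ccl11 (-0.19) and Postn (0.04). Il13 itself had 0 expected counts in each Tac111 library, 5 to 20 in the Tac146 libraries and 1 to 3 in the B6 libraries. It was too low to be tested. Il5 had 9 to 19 counts in Tac111, 8 to 12 in Tac146 and 3 to 12 in B6, and was not called. Il4 had 0 to 4 counts in each library, and Il9 had none. In Tac146 against B6, none of the 25 was called in edgeR (7 with an unadjusted p under 0.05, none in DESeq2). These counts moved when libraries were left out in turn, an alternative added after the data were seen. In Tac111 against B6, the leukotriene list gave 0 to 3 calls (0 without Tac111 replicate 2 or 3, or B6 replicate 3), and the phospholipase list 0 to 1 (0 without any 1 Tac111 library, B6 replicate 1 or B6 replicate 3). The cyclooxygenase list gave 0 to 2 there (0 without Tac111 replicate 2), the hydroperoxide list 0 to 1 (Gpx3 was lost without Tac111 replicate 1 or 3, or B6 replicate 2 or 3, and in the last case Gpx2 was called) and the interleukin list 3 to 7 (3 without Tac111 replicate 1 or 2). In Tac111 against Tac146, the barrier list gave 0 to 7 calls (0 without Tac111 replicate 3 or Tac146 replicate 3) and the hydroperoxide list 0 to 4 (0 without Tac111 replicate 1 or 3). The leukotriene list gave 1 to 3 there (Ltb4r2 was lost without Tac111 replicate 2), and the phospholipase list 2 to 4, with Pla2g4b lost without any 1 Tac111 library, Tac146 replicate 3 or 4, or B6 replicate 2. The cyclooxygenase list gave 2 to 3, with Hpgds and Ptger3 called each time, Akr1b3 called only without Tac146 replicate 2, and Ptges only without Tac146 replicate 4 or B6 replicate 1. The interleukin list gave 8 to 11 there. The call of Mgst2 in Tac146 against B6 was lost in 7 of the 9 cases.

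**Figure D4:**
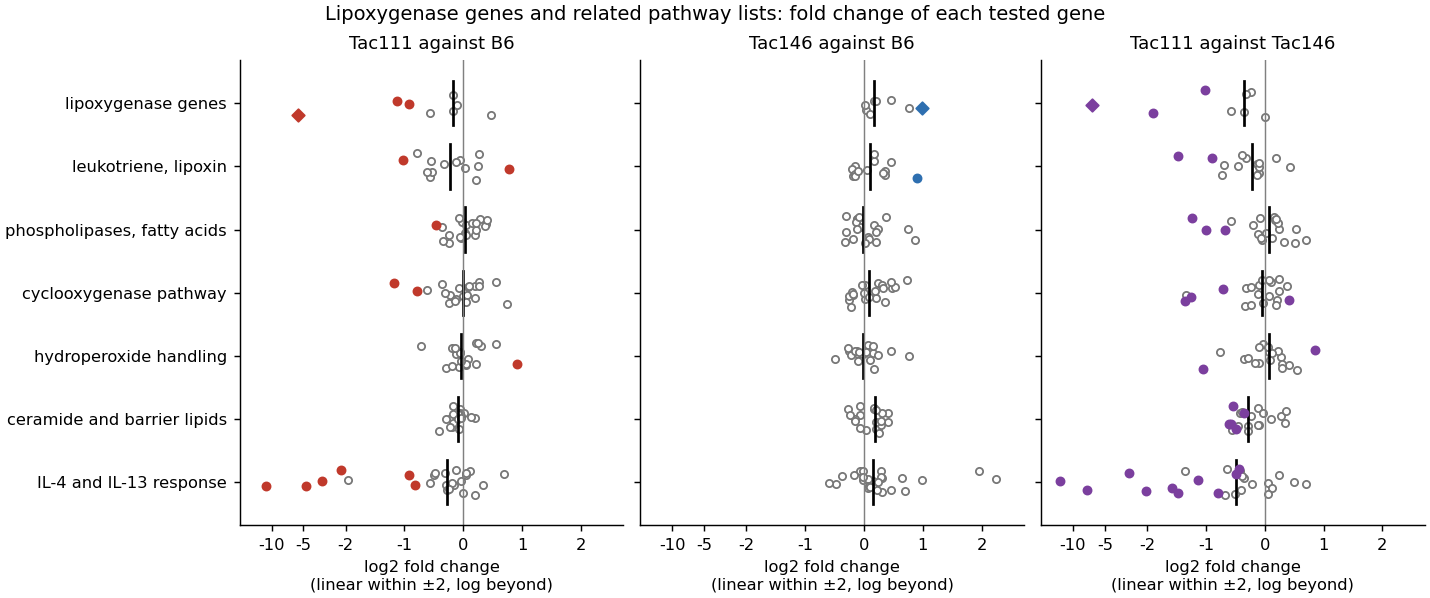
Log2 fold change of each tested gene in the lipoxygenase family and the 6 related lists, in the 3 comparisons (axis linear within ±2, log beyond); filled points passed the threshold, open ones did not, the diamond is Alox15 (no test) and the black line is the median, without Alox15 for the family. In Tac111 over B6, Chil4 at -11.41 is the lowest point and Alox15 at -5.69 the next.

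Genes whose pattern over the 9 libraries was most like that of Alox15 were ranked by Pearson correlation of log2(CPM + 0.5) among 11128 genes. The libraries of a strain share its level, so the correlation is a description of 3 clusters of 3 libraries. Among the 10 highest were Gzmc (0.995), Sprr2a3 (0.993), Nlrc5 (0.991), Sprr2a2 (0.991), Chil4 (0.990), Tcim (0.989), Itgax (0.989), Limd1 (0.988) and Wwtr1 (0.984). Their levels were unlike: Sprr2a2 had 5.61 ± 0.69 CPM in Tac111, 7775 ± 3145 in Tac146 and 1793 ± 451 in B6, and Limd1 had 67.1 ± 0.859 CPM in Tac111, 77.1 ± 1.2 in Tac146 and 75.5 ± 0.584 in B6 (SD, n = 3). Ranked by Spearman correlation, 0 of the 10 stayed among the first 10.

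**Figure D5:**
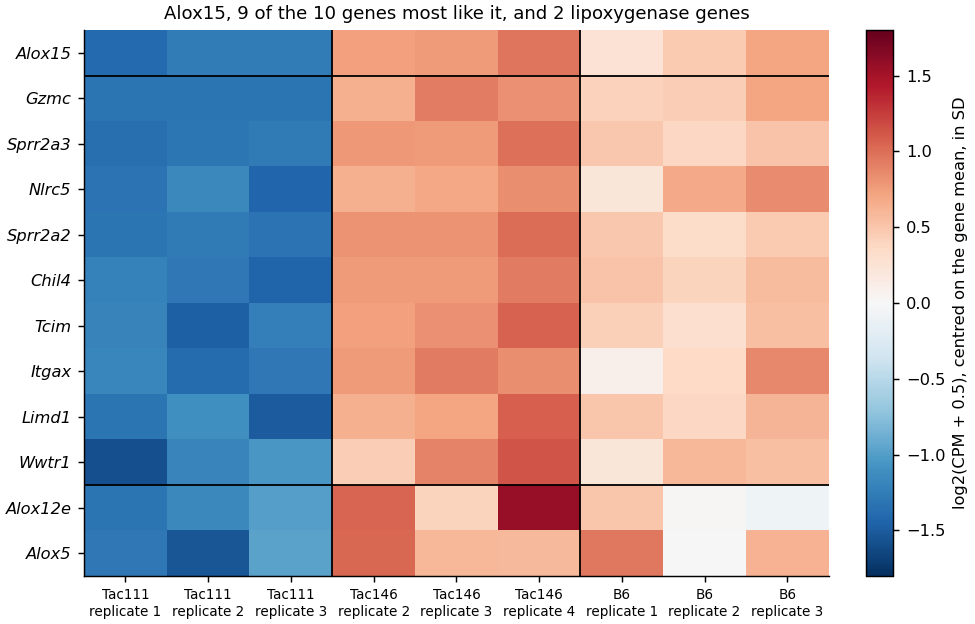
Level of Alox15, 9 of the 10 genes most like it, and Alox12e and Alox5 in the 9 libraries, as log2(CPM + 0.5) centred on each gene's mean and divided by its SD. Every gene shown is below its mean in the 3 Tac111 libraries.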

How the data were processed

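Polyadenylated RNA of 9 labial mucosa biopsies was sequenced with a kit that keeps strand, per the labels' protocols. The files hold expected counts for each gene symbol, estimated by the authors and not normalized, per the file headers. The submitters' processing notes name STAR, RSEM and GRCm38, and neither versions, annotation nor strand setting is stated. Each file held 55450 lines, and 107 symbols that stood on more than 1 line were summed.

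After rounding of the expected counts, 1 mean per strain was fitted over the 9 libraries with edgeR 4.0.16 in R 4.3.3, using TMM factors, the default expression filter and the quasi-likelihood test. Benjamini-Hochberg adjustment covered all 16523 genes left, with 0.05 as threshold. Each SE was taken as the absolute log2 fold change over the square root of F, so SE and interval are approximate. Libraries of 1 strain differed beyond sampling noise (chi-square per degree of freedom 15.67 to 93.67). GENCODE M21 matched 99.8% of the names by symbol. Python 3.11.15, pandas 2.3.3 and matplotlib 3.10.9 made tables and figures. The tests were checked on simulated counts first.

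The genes and lists were chosen with earlier results of these data known. Named were the 8 family genes, up to 4 called genes per list and comparison with the smallest adjusted p, and the 10 genes most like Alox15 that averaged at least 5 CPM in their highest strain, leaving out predicted and mitochondrial genes, pseudogenes and receptor segments. Of these 10, 1 is not reported here. Cxcl16, Il13, Il4, Il5, Il9, Gata3, Arg1, Ccl11 and Postn were named after their values were seen. Alternatives were DESeq2 1.42.0, its size factors, upper-quartile factors, no filter, at least 1 CPM in 3 libraries, a replicate block, fits to only the 6 libraries compared, each library left out, a pseudocount of 1, Spearman correlation and transcript length.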

Additional observations from a re-analysis of the deposited data

How the results depend on the processing

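Under the alternatives run, no called fold change of a lipoxygenase gene changed sign. Of the values recomputed for the 8 genes, 10 passed the threshold where the reported value did not, 5 lost the call, and the others kept their side of it or, for Alox15, have no test. The number of genes called in Tac111 against B6 was 630, against 1161 with DESeq2, 1020 with no filter on low counts and 295 to 958 with a library left out. In Tac146 against B6 it was 50, against 131 with DESeq2, 129 with no filter, 26 with only the 6 libraries compared and 33 to 64 with a library left out. In Tac111 against Tac146 it was 1469, against 2572 with DESeq2, 641 with only the 6 libraries and 470 to 1829 with a library left out. Of the 7 lipoxygenase genes other than Alox15, leaving out a library gave 0 to 3 calls in Tac111 against B6 (0 without Tac111 replicate 2) and 2 to 3 in Tac111 against Tac146. DESeq2 called 4 of them in Tac111 against Tac146. With no filter, 1 was called in Tac146 against B6, Alox12e (edgeR adjusted p = 0.0332). The cause of these changes was not tested.

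The labels do not say that a replicate number marks a shared animal or day. Same-numbered libraries deviated from their strain means with correlations of -0.16 to 0.29, and differently numbered ones with -0.39 to 0.33. With so few pairs, these values cannot show whether a shared animal or day lies behind a number. With a replicate block, 874 genes were called in Tac111 against B6, 44 in Tac146 against B6 and 632 in Tac111 against Tac146. In the last, the Alox15 log2 fold change was -6.18 and Alox5ap passed the threshold (edgeR adjusted p = 0.0331). The block changed no other call of a lipoxygenase gene. Ranked by Spearman correlation, the 10 genes most like Alox15 shared 0 with those ranked by Pearson correlation, and 8 to 10 when a library was left out.

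Alox8 and Alox5 rest on as few as 83 counts in a library.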
